A study of Mus musculus with 102 samples.

Results

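Myelin is the lipid-rich sheath that oligodendrocytes wrap around axons in the brain. This account follows 9 genes of that cell type, Apod, Mbp, Mog, Mag, Mobp, Cnp, Cldn11, Mal and Opalin, out of 51810 genes in the tables. They were taken by symbol, and 9 of 9 passed the filter on low values in brain (15546 genes tested). The main data are RNA-seq libraries of brain tissue (the labels name no region) from male wild-type mice of the strain labelled BL6J. There were 7 samples at 3 months of age, 8 at 5 months, 7 at 8 months, 9 at 14 months, 7 at 20 months and 5 at 26 months. They came from 45 libraries, of which a pair at 5 months and a pair at 8 months differed by less than the sampling noise and were each counted as 1 sample, although the labels give each library of a pair its own animal number. Spleens of the same 45 animals, and a separate set of 12 spleens (mTOR and wild-type males, 5 months and 21 to 23 months old, 3 mice a group), served as tissue without myelin-forming oligodendrocytes. The labels do not say what the mTOR genotype changes. No intervention group entered the brain comparisons.

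Oligodendrocyte precursors divide, leave the cell cycle and, under transcription factors of the SOX family and MYRF, switch on the genes for myelin proteins and lipids together. The sheath is compacted by basic proteins on its inner membrane face and sealed by tight junctions, and it is kept up for life, with some new sheaths still being formed in the adult mouse. Mbp (myelin basic protein) and Mobp code for compaction proteins. Mag and Mog code for immunoglobulin-like membrane proteins at the inner and outer faces of the sheath. Cnp codes for an enzyme that keeps cytoplasmic channels open in myelin, Cldn11 for the claudin of myelin tight junctions, and Mal for a membrane-raft proteolipid. Opalin codes for an oligodendrocyte membrane glycoprotein. Apod codes for apolipoprotein D, a secreted lipid carrier that is not a structural myelin protein and is also made by other cells.

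Promoter sequence is shown for the 3 genes whose level changed along with age in the results that follow. The stretches are the bases upstream of the transcription start in RefSeq (GRCm38.p6), 5′ to 3′ on the gene's strand. Capitals mark the SOX core motif (ACAAAG or ACAATG, either strand) and the MYRF motif (CTGGCAC or CTGGTAC, either strand). The Apod stretch is chr16:31314809-31315058 (minus strand), the Mobp stretch chr9:120149492-120149706 (plus strand) and the Mag stretch chr7:30914923-30915172 (minus strand).
Apod: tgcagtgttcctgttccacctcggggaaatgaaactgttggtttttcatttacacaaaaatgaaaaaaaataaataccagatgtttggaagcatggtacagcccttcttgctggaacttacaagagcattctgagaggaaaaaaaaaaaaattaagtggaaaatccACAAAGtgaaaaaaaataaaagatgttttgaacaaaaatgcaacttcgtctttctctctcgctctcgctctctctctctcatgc
Mobp: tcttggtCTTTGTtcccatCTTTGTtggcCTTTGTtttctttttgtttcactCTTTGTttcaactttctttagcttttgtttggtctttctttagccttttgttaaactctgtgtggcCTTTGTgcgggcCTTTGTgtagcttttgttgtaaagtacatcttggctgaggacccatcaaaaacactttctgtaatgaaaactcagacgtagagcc
Mag: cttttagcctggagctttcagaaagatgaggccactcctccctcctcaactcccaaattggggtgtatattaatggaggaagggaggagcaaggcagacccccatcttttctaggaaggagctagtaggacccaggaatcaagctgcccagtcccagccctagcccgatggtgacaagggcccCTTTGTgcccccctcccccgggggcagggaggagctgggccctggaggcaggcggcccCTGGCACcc
The SOX core stood 84 bases before the Apod start and 67 bases before the Mag start, and Mobp had 6 copies, between 243 and 120 bases before its RefSeq start. The last 35 bases before that start are not printed for Mobp, since GENCODE begins the gene there. The Mag stretch also held the MYRF motif, 9 bases before its start. Of the 8 genes found in the promoter table, 5 had a SOX core within 250 bases upstream, against 25.2% of 32851 mouse promoters. The MYRF motif was in 3 of the 8 (Mog, Mag and Cnp), against 5.93% of all promoters. These are letter matches only.

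The libraries held 4072076 to 13655235 reads in genes in brain, 3031246 to 11702988 in ageing spleen and 7733716 to 14112504 in the mTOR set. Values are the deposited normalized read counts. Other oligodendrocyte markers set brain apart from spleen: Olig1 had a median of 1005 in brain and 2.27 in ageing spleen, and Sox10 one of 177 in brain and 3.29 in ageing spleen. Of the peripheral nerve markers, Prx had a median of 5.85 in brain and Egr2, which neurons also transcribe, averaged 61.0 ± 32.9 at 26 months and 146 ± 67.2 at 3 months. Pmp2 was listed at 0 in every library, as are some genes that brain expresses, so its level is not known here. In these bulk samples more cells of a type and more RNA per cell cannot be told apart.

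Per kilobase of annotated exon, Mbp was the highest of the 9 genes in brain, with a mean of 1529 normalized reads per kilobase, then Mal (717), Cldn11 (588), Cnp (494), Apod (377), Mog (234), Mobp (182), Mag (139) and Opalin (52.5). The closest neighbours were Cnp and Apod, ordered this way in 36 of 43 samples, and Cldn11 and Cnp, in 39 of 43. Mbp stood above Mal, and Mag above Opalin, in 43 of 43. Exon length and position come from GENCODE (GRCm38): Apod lies at chr16:31296192-31314808, Mobp at chr9:120149707-120181484, Mag at chr7:30899176-30914873 and Cldn11 at chr3:31149920-31164324. Reads of genes with overlapping neighbours may be split or shared. Mobp overlaps Gm38642 on the same strand. On the opposite strand Cnp overlaps Dnajc7, Mbp overlaps Rpl21-ps8 and Mog overlaps Gm22388. Whether counting used strand is not given in the sources used here. The 9 genes together took 0.328 ± 0.0323% of reads at 26 months (n = 5), against 0.280 ± 0.0284% at 3 months (n = 7; SD), and Mbp made up 57.4% to 66.1% of their sum in every sample.

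**Figure D1:**
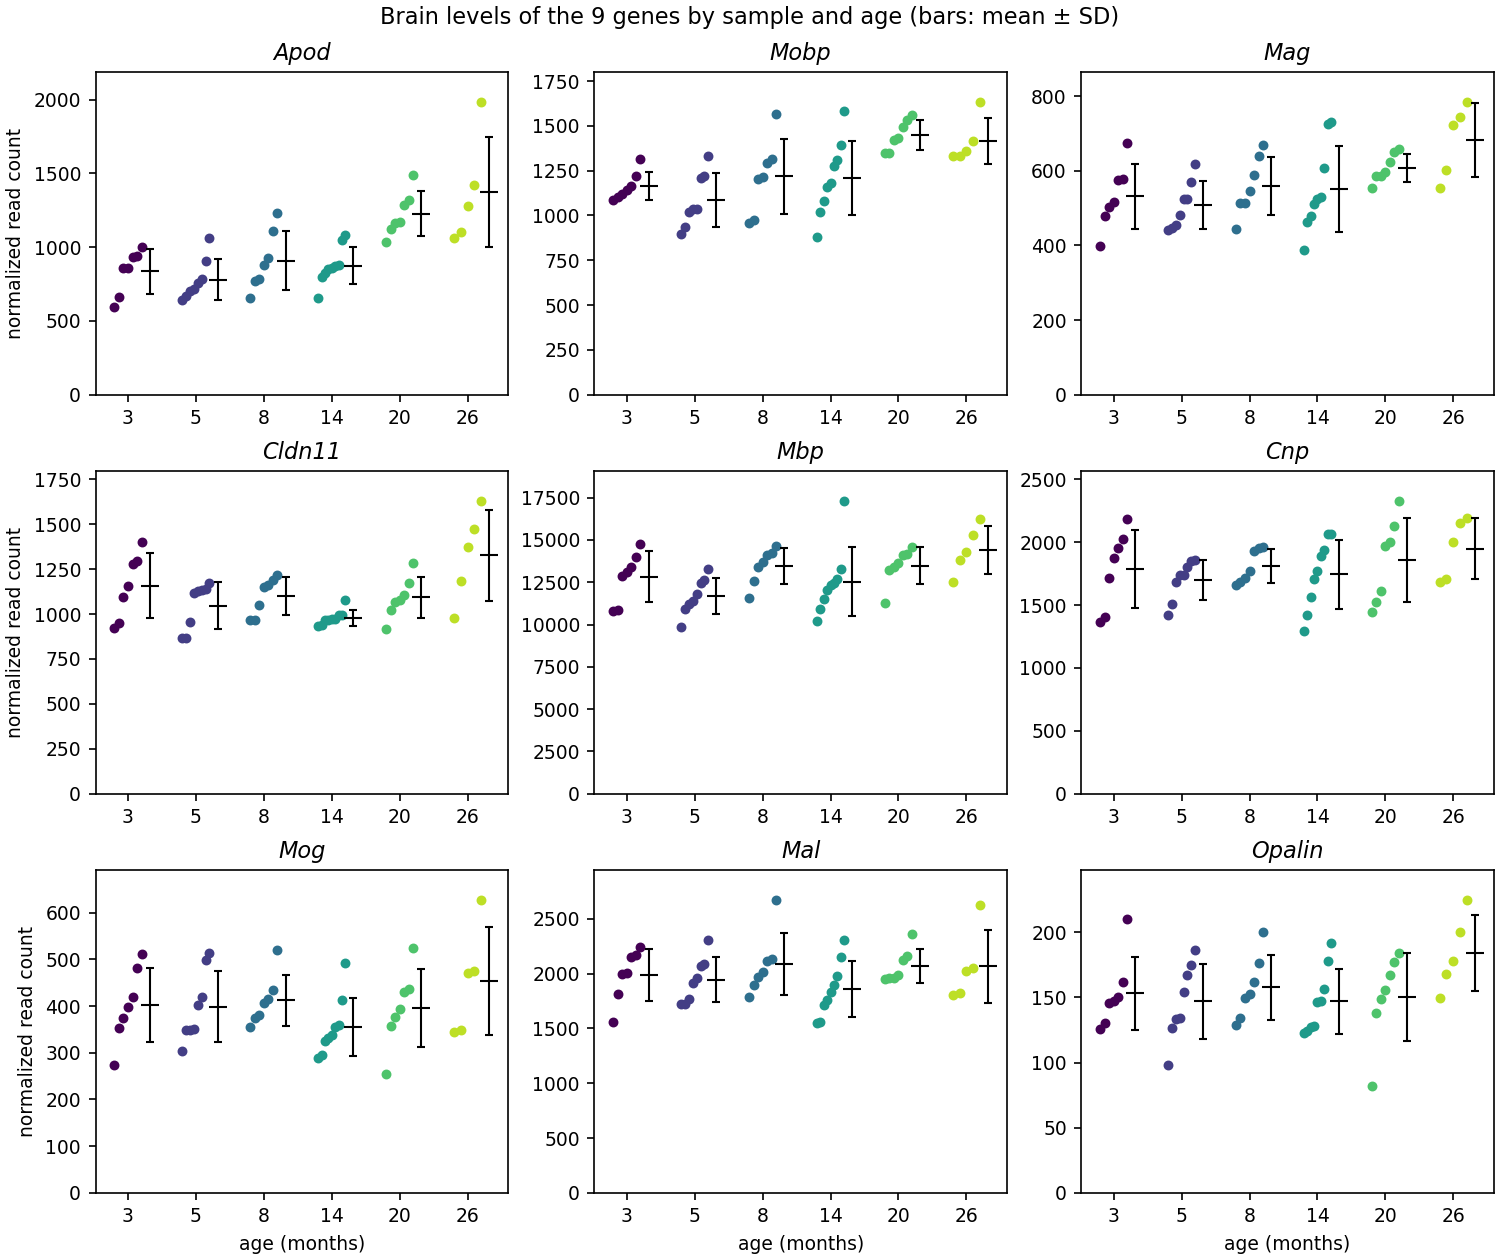
Normalized read counts of the 9 genes (vertical axis, from 0) in every brain sample at each age (horizontal axis, months); dots are samples and bars the mean ± SD. The 20- and 26-month dots of Apod and Mobp lie above every 3-month dot, while the ages overlap in the other 7 genes.

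Apod rose with age, and it was the only one of the 9 genes called higher than at 3 months at 20 and at 26 months. Its mean was 835 ± 151 at 3 months, 780 ± 139 at 5 months, 908 ± 201 at 8 months, 875 ± 127 at 14 months, 1225 ± 152 at 20 months and 1370 ± 373 at 26 months (normalized read count, SD). At 26 months the 5 samples had 1986, 1280, 1102, 1418 and 1064, while the 3-month samples ran from 595 (median 861) to 1002. Thus the lowest 26-month sample lay above the highest 3-month sample, and the 20-month samples, at 1033 to 1491 (median 1168), did so too. The 14-month samples, from 657 (median 858) to 1084, still lay largely in the 3-month range; 20 and 14 months were not compared by a test.

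At 26 against 3 months Apod was 1.62-fold higher (log2 fold change 0.70, SE 0.14, limma adjusted p = 0.00459; higher in 5 of 5 samples than in any 3-month sample). It was the only one of the 9 genes called, at a limma p adjusted over all tested genes under 0.05, where 0.572% of all tested genes were called higher. At 20 against 3 months it was 1.48-fold higher (log2 0.57, SE 0.13, limma adjusted p = 0.0440), again alone among the 9, against 0.161% of all genes called higher. That call lay close to the threshold: it was lost with no filter on low values (adjusted p = 0.0921) and when any 1 of 16 of the 43 samples was left out, with log2 fold changes of 0.49 to 0.59 and adjusted p up to 0.164, the highest without 20-month replicate 7. At 26 against 14 months it was 1.54-fold higher (log2 0.62, SE 0.14, limma adjusted p = 0.0250). This call was lost without 26-month replicate 1 (log2 0.48, adjusted p = 0.387), 26-month replicate 4 (0.60, 0.103), 26-month replicate 2 (0.64, 0.0572) or 14-month replicate 9 (0.57, 0.0708). It was also lost without libraries under 5000000 reads (adjusted p = 0.157), with no filter (0.0568) and with only the 2 ages in the fit (0.0614). These comparisons share samples, so they are not separate evidence. The call at 26 against 3 months was lost without 1 of the 43 samples: without 26-month replicate 1, the highest sample and a shallow one (4594090 reads), the log2 fold change was 0.55 with an adjusted p of 0.0656. Without every library under 5000000 reads, that one included, it was 0.60 with an adjusted p of 0.0232.

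Mobp likewise had its highest means at 20 and 26 months. Its mean was 1165 ± 79.4 at 3 months, 1085 ± 151 at 5 months, 1219 ± 210 at 8 months, 1209 ± 209 at 14 months, 1449 ± 84.2 at 20 months and 1416 ± 127 at 26 months. The 26-month samples had 1636, 1333, 1334, 1416 and 1361, and the 20-month samples 1349 to 1562 (median 1431), all above the 3-month range of 1086 to 1315.3 (median 1140). Groups that did not overlap, with the later age higher, were found for 0.823% of all tested genes at 26 against 3 months and for 0.232% at 20 against 3 months; among the 9 they were Apod and Mobp both times. The pairwise tests did not pass: the log2 fold change was 0.28 (SE 0.11, limma adjusted p = 0.306) at 26 against 3 months and 0.31 (SE 0.098, limma adjusted p = 0.216) at 20 against 3 months. The 5-, 8- and 14-month samples spread wider. Those at 8 and 14 months overlapped both ends, while the 5-month samples reached 1329, just below the lowest 26-month sample.

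Mag was intermediate. Its mean was 532 ± 87.4 at 3 months, 508 ± 63.7 at 5 months, 560 ± 78.8 at 8 months, 551 ± 116 at 14 months, 608 ± 37.9 at 20 months and 682 ± 98.6 at 26 months. The 26-month samples had 786, 744, 603, 723 and 554, so 3 of 5 exceeded the highest 3-month sample, in a 3-month range of 399 to 675 (median 518). The log2 fold change was 0.36 (SE 0.12, limma adjusted p = 0.216).

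Fitted as a slope over all 6 ages, 3 of the 9 genes rose, against 1.3% of all tested genes called higher. Apod gained 0.33 per 10 months on the log2 scale (SE 0.050, limma adjusted p = 1.27e-05), Mobp 0.17 (SE 0.037, adjusted p = 0.00484) and Mag 0.15 (SE 0.041, adjusted p = 0.0333). The slope of Mbp was 0.08 (SE 0.034, adjusted p = 0.235), and those of Opalin, Cldn11, Cnp, Mog and Mal lay between 0.02 and 0.07. The slope of Mag lost its call without the libraries under 5000000 reads, with no filter on low values, or without any 1 of 6 libraries: 3-month replicate 5, 20-month replicates 4 and 6, and 26-month replicates 1, 2 and 4. A test of any difference among the ages called Apod (limma adjusted p = 0.000246; 0.482% of all genes called) and not Mobp (adjusted p = 0.0648).

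Cldn11 had its lowest mean in middle age, but limma's test of any difference among the ages did not call it (adjusted p = 0.280). Neither its slope (limma adjusted p = 0.526) nor 14 against 3 months (limma adjusted p = 0.996) was called. Its mean was 1157 ± 180 at 3 months, 1047 ± 129 at 5 months, 1100 ± 105 at 8 months, 979 ± 42.9 at 14 months, 1093 ± 115 at 20 months and 1328 ± 253 at 26 months. The 26-month samples had 1631, 1370, 1474, 1185 and 979, and the 9 samples at 14 months lay between 933 and 1079 (median 970). All but the last of the 26-month samples exceeded every 14-month sample. At 26 against 14 months Cldn11 was 1.34-fold higher (log2 0.42, SE 0.097, limma adjusted p = 0.0486), and with Apod this made 2 of the 9 genes, against 0.167% of all genes called higher. That call stood close to the threshold and was lost when any 1 of 27 of the 43 samples was left out. At 26 against 3 months its log2 fold change was 0.19 (SE 0.10, limma adjusted p = 0.532).

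For the other 5 genes none of the comparisons between ages, nor the slope, passed the test. Mbp averaged 12833 ± 1506 at 3 months, 11682 ± 1082 at 5 months, 13469 ± 1075 at 8 months, 12532 ± 2025 at 14 months, 13480 ± 1074 at 20 months and 14414 ± 1430 at 26 months; its log2 fold change at 26 against 3 months was 0.17 (SE 0.096, limma adjusted p = 0.561). Its 26-month samples lay between 12484 and 16231, and the 3-month samples between 10798 and 14769, so most of the range was shared. Cnp averaged 1948 ± 241 at 26 months and 1788 ± 309 at 3 months, and Mog 454 ± 116 at 26 months and 402 ± 79.5 at 3 months. Mal averaged 2066 ± 332 at 26 months and 1992 ± 237 at 3 months, the smallest difference of the 9 (log2 0.05, SE 0.10). Opalin averaged 184 ± 29.2 at 26 months and 153 ± 28.0 at 3 months (log2 0.27, SE 0.16, limma adjusted p = 0.576). Opalin was at 82.2 to 184 at 20 months, so its higher mean appeared at 26 months alone among these groups.

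The sign was shared more widely than the calls. At 26 against 3 months the fitted change was above 0 in 9 of the 9 genes, with a median of 0.19 on the log2 scale, while 49% of all tested genes were above 0 and their median was -0.01. The value of Mal turned to -0.04 without 26-month replicate 1, and likewise without the libraries under 5000000 reads, and to -0.01 without 3-month replicate 3. At 26 against 14 months all 9 were also above 0 (median 0.32; 50.9% of all tested genes), and 7 of the 9 had an unadjusted p under 0.05, as 3.93% of all tested genes had in that direction. At 5 against 3 months all 9 were below 0 (median -0.07; 49.2% of all tested genes were above 0), none with an unadjusted p under 0.05. The signs of genes that vary together in the same samples are not independent of each other.

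With limma, none of the 9 genes was called at 5, 8 or 14 months against 3 months, or at 26 against 20 months, where 0% of all tested genes were called. Unadjusted p under 0.05 was met by 0 of the 9 at 5 and 8 months, by 1 at 14 months (Cldn11, log2 -0.23) and by 2 at 26 against 20 months (Cldn11, log2 0.27, and Opalin, log2 0.32). Among all tested genes it was met by 495, 558 and 661 at 5, 8 and 14 months against 3 months and by 604 at 26 against 20 months. With edgeR and with DESeq2 on recovered reads 0 of the 9 were called in these comparisons.

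**Figure D2:**
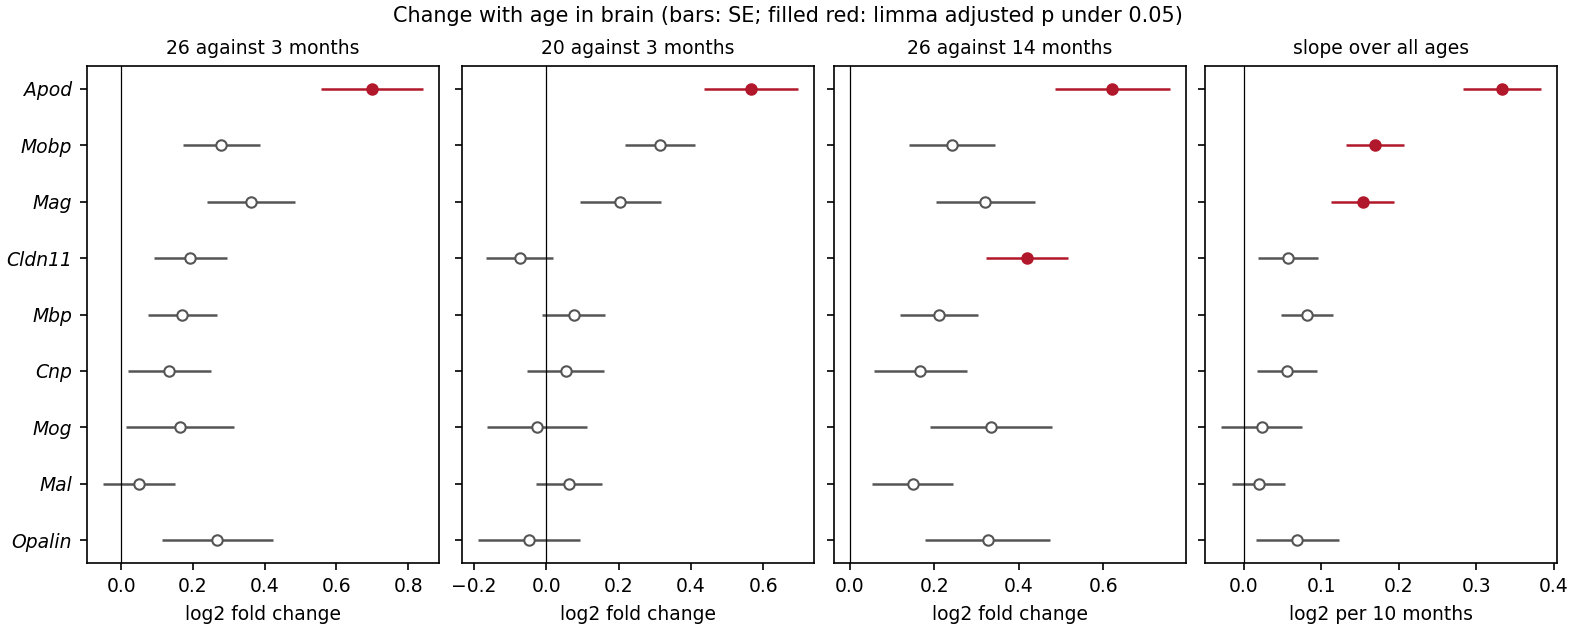
Change of each gene (rows) in brain as log2 fold change or as log2 slope per 10 months (horizontal axes), with bars of 1 SE; filled red points passed limma's adjusted p under 0.05. Apod is filled in every panel, Mobp and Mag in the slope panel and Cldn11 at 26 against 14 months.

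Apod was also compared with other mature oligodendrocyte genes of the same bulk tissue, which is not a comparison within 1 cell type. The 63 genes used were the tested genes of lists given below. These were other myelin membrane and junction (19), myelin lipid synthesis (14) and other mature oligodendrocyte genes (30). The mean log2 value of the 63 was subtracted in each sample. That mean was 8.52 ± 0.080 at 26 months and 8.33 ± 0.11 at 3 months (SD, n = 5 and 7). Relative to it Apod stood at 1.86 ± 0.31 at 26 months and 1.35 ± 0.23 at 3 months, and at 1.86 ± 0.25 at 20 months. The relative log2 change at 26 against 3 months was 0.51 (SE 0.13, limma adjusted p = 0.0182), and Apod was the only one of the 9 called, against 0.444% of all genes called higher and 6.43% called lower. The other 8 had relative changes between -0.14 (Mal) and 0.17 (Mag). On this scale the median of all tested genes was -0.19. The call was lost without 26-month replicate 1 and without the libraries under 5000000 reads.

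**Figure D3:**
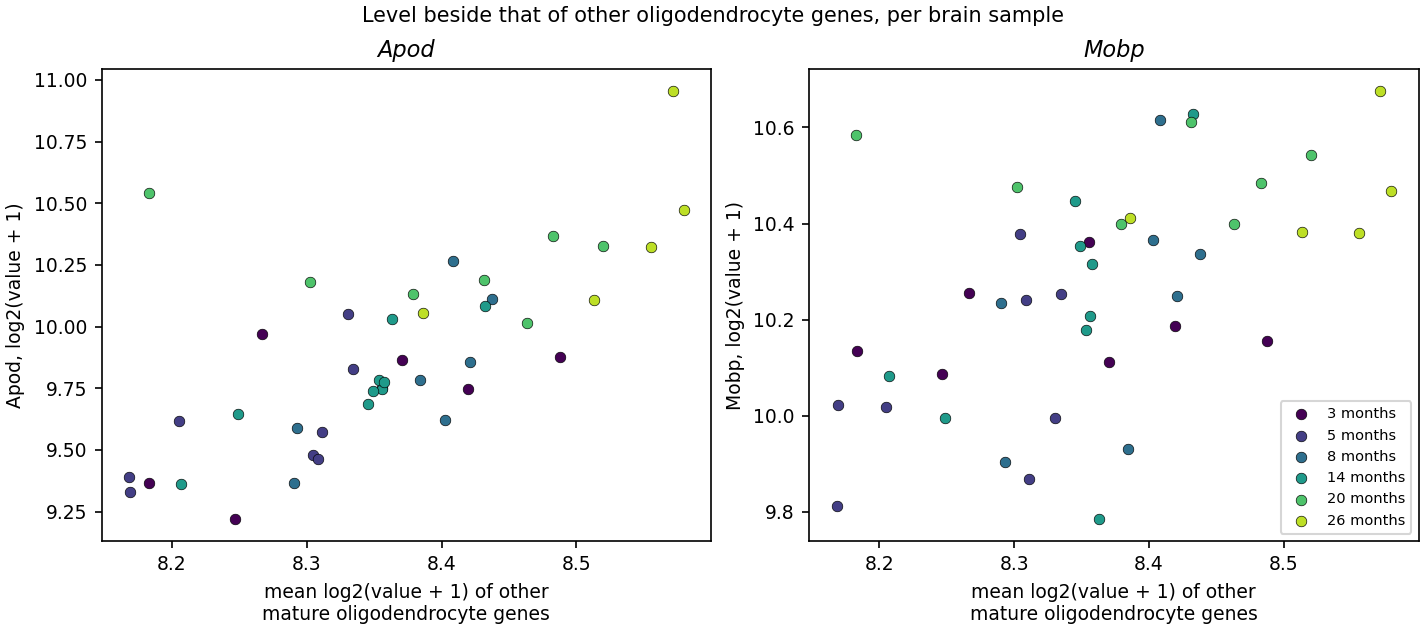
Level of Apod (left) and Mobp (right) on the log2(value + 1) scale. The horizontal axis is the mean of 63 other myelin, myelin lipid and mature oligodendrocyte genes in the same brain sample. Each dot is a sample and the colour its age. The 20- and 26-month dots of Apod lie above every 3-month dot, but some 8-month dots lie as high as some of them. Most 26-month dots lie to the right of all 3- to 14-month dots, though by little at the nearest (8.51 against 8.49 at 3 months). A 20-month dot (8.52) lies among them, so few younger dots have a like oligodendrocyte level there.

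Few other genes of the myelin programme were called. Of 19 tested genes for other myelin membrane and junction proteins, 1 rose at 26 against 3 months and 18 were not called (median log2 0.16). An unadjusted limma p under 0.05 was met by 6 of the 19, and by 1570 of all 15546 tested genes in either direction. The riser was Hapln2, which codes for a link protein of the matrix at nodes of Ranvier: 113 ± 17.9 at 26 months and 72.3 ± 15.1 at 3 months (log2 0.65, SE 0.15, limma adjusted p = 0.0183). Its slope was 0.42 per 10 months (limma adjusted p = 1.08e-06). None of 14 genes of myelin lipid synthesis was called with limma, edgeR or DESeq2 (median 0.14; 3 with an unadjusted limma p under 0.05); those with the smallest p were Elovl7, a fatty acid elongase (log2 0.31), and Ugt8a, which makes galactosylceramide (log2 0.27). None of 30 tested genes among other mature oligodendrocyte genes was called with limma or edgeR (median 0.13; 9 with an unadjusted limma p under 0.05), and 2 were with DESeq2, Anln and Klk6. In limma Anln, a cytoskeletal scaffold of myelin, had log2 0.49 (limma adjusted p = 0.0640) and Klk6, a secreted protease, log2 1.15 (limma adjusted p = 0.104). In the slope over all ages, Anln (0.25 per 10 months), Galnt6 (0.23), Il33 (0.17) and Aspa (0.13) rose as well.

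Earlier stages of the lineage showed no called gene at 26 against 3 months. That held with limma, edgeR and DESeq2 for 16 transcription regulators (median log2 0.09; Zfp536 0.37), for 15 tested genes of newly formed oligodendrocytes (median 0.00; Bcas1 0.31, Mycl -0.37) and for 16 tested genes of precursors (median -0.00; Susd5 -0.49, Matn4 0.34). Of 7 tested ligands and receptors that inhibit axon growth or myelination, none was called (median -0.17; Lingo1 -0.24, Rtn4rl1 -0.22). Unadjusted limma p under 0.05 was met by 3, 3, 2 and 1 genes of these lists in that order. Over all 15546 tested genes 0.663% were called in either direction, and 1570 had an unadjusted limma p under 0.05.

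Markers of other cell types and regions were read beside these values. Of 8 tested microglial markers 2 rose at 26 against 3 months: C1qb (log2 0.71, limma adjusted p = 0.0137) and C1qa (log2 0.87, limma adjusted p = 0.0182), both parts of complement C1q; DESeq2 called C1qc as well. The summed level of the microglial list was 1459 to 2183 at 26 months and 1274 to 1854 at 3 months, and P2ry12 and P2ry13 were listed at 0. None of 9 neuronal (median -0.18; Stmn2 -0.25, Rbfox3 -0.19), 10 astrocyte (median 0.03; Aqp4 0.30, Gjb6 0.14), 9 endothelial (Flt1 0.32, Pecam1 0.36) or 11 fibroblast markers (Col3a1 -0.64, Igf2 0.43) was called with limma, edgeR or DESeq2, and 4, 1, 2 and 3 of them had an unadjusted limma p under 0.05. The summed fibroblast list, whose cells can also make Apod, was at 860 to 1158 at 26 months and 673 to 1253 at 3 months. None of 6 choroid plexus markers (median 0.41; Slc4a5 0.83, Clic6 0.41; summed level 1857 to 3545 at 26 months and 1355 to 2761 at 3 months) or of 4 Schwann cell markers (Egr2 -1.23, Prx -0.66) was called with any of the 3 tools, and 1 of each list had an unadjusted limma p under 0.05. Among region markers, the cerebellar Car8 fell (log2 -0.56, limma adjusted p = 0.0284), and it did so with all 3 tools. None was called by any of them for cortex and hippocampus (Neurod6 -0.31), striatum (Penk -0.43), brainstem (Tph2 0.18, Slc6a5 0.17), olfactory bulb (Lbhd2 0.83, Eomes 0.23) or hypothalamus and pituitary (Pomc 1.62, Prl 1.52), where 3, 2, 0, 0 and 0 had an unadjusted limma p under 0.05. Only 2 of 10 brainstem and spinal cord markers and 5 of 8 cerebellar markers were tested, so these lists cover those regions thinly. The median log2 fold change was -0.26 for the cortex and hippocampus list and -0.29 for the striatum list. In the slope over all ages 2 of 8 striatum markers fell, among them Penk (-0.20 per 10 months, limma adjusted p = 0.0281), and 8 of 8 were below 0, where 0.283% of all tested genes were called lower. Car8 fell (-0.24, limma adjusted p = 0.000468), and C1qa (0.35), C1qb (0.36) and C1qc (0.31) rose in the slope. No neuronal, astrocyte, endothelial, fibroblast, choroid plexus or Schwann cell marker was called in the slope with limma, while 9 of 9 neuronal markers were below 0 and 4 had an unadjusted limma p under 0.05. Of all 15546 tested genes, 1570 had an unadjusted limma p under 0.05 at 26 against 3 months and 2176 in the slope. The part of these markers in the changes of the 9 genes was not tested.

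**Figure D4:**
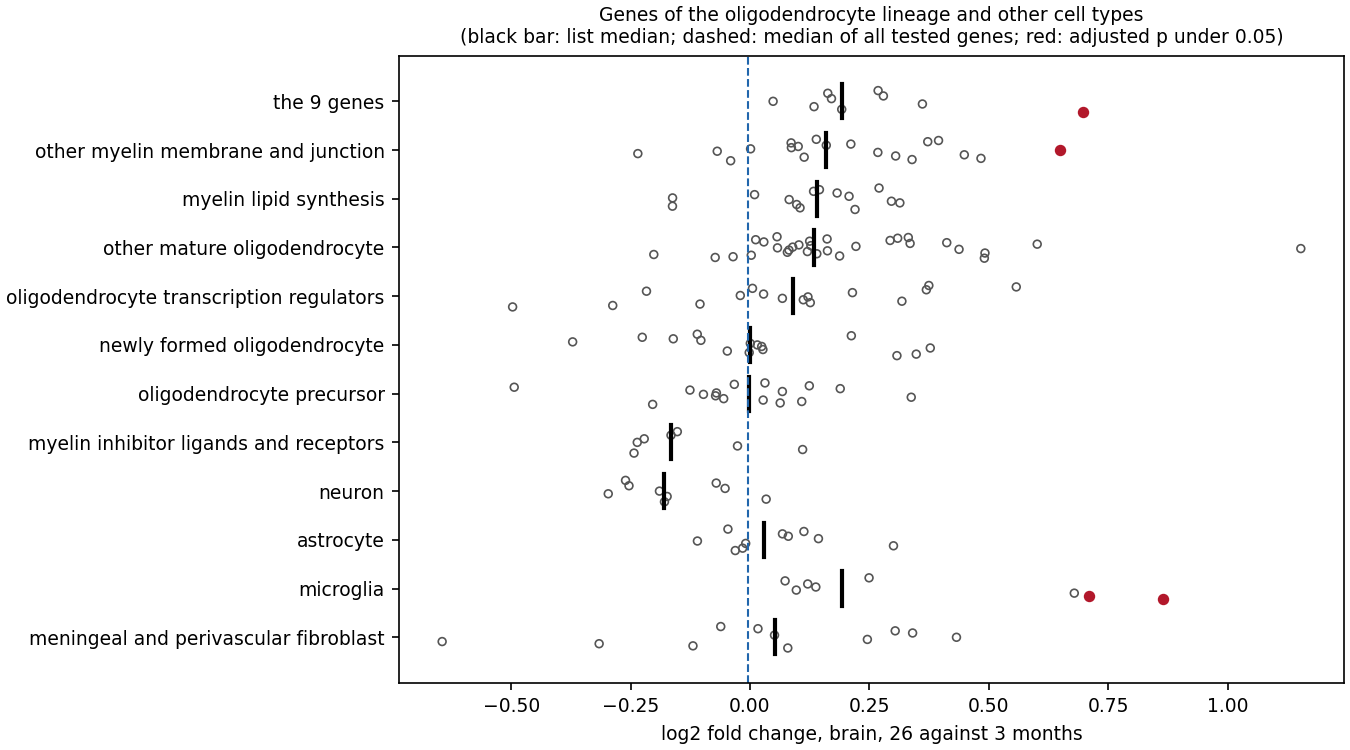
Log2 fold change at 26 against 3 months in brain (horizontal axis) for the tested genes of each list (rows); circles are genes, red ones passed limma's adjusted p under 0.05, black bars are list medians and the dashed line is the median of all tested genes. The lists of mature oligodendrocytes have medians of 0.13 to 0.19, while precursors and newly formed cells sit at 0.00.

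The 9 genes did not vary as 1 block among animals of an age. With the age means removed, Pearson's r over the 43 samples ran from -0.26 to 0.69 in the 36 pairs (median 0.30), and 15 pairs had a permutation p, adjusted over the 36, under 0.05 (16 by Spearman's rho). Mog and Cnp varied together (r = 0.69, rho = 0.73, permutation adjusted p = 0.00012 for both; r = 0.67 without the 2 outermost samples), and so did Mog and Cldn11 (r = 0.69, rho = 0.69, permutation adjusted p = 0.00012 for both; r = 0.63 without 2). Mobp and Mal formed another close pair (r = 0.67, rho = 0.66, permutation adjusted p = 0.00018 and 0.00042; r = 0.63 without 2). Between these sets Mobp and Mog had r = -0.26 and rho = -0.15 (permutation adjusted p = 0.125 and 0.471; r = -0.29 without 2), and Mobp and Cldn11 r = 0.01. The pair Cldn11 and Mal had r = 0.35 and rho = 0.27 (permutation adjusted p = 0.082 and 0.199). Mbp was the gene with the highest median r to the other 8 (0.54). Apod had its highest r with Mbp (r = 0.64, rho = 0.65, permutation adjusted p = 0.00022 and 0.00012; r = 0.62 without 2). By Pearson's r, 4 of the 8 pairs of Apod had a permutation adjusted p under 0.05. All values of a sample come from 1 library, so they share its depth and dissection.

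**Figure D5:**
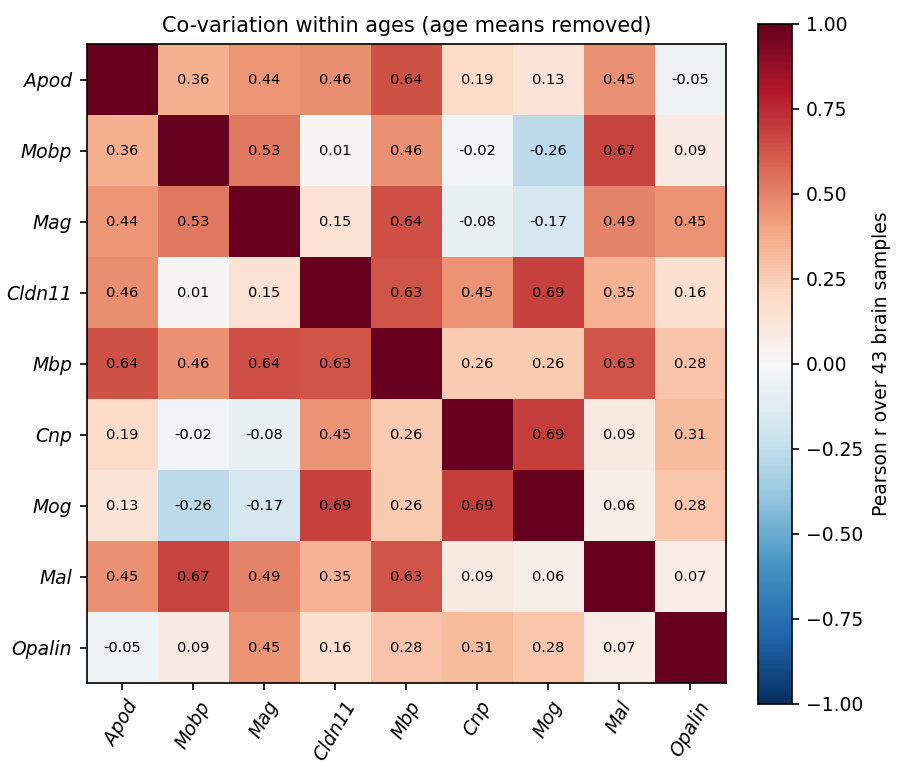
Pearson's r between the 9 genes over 43 brain samples after removal of the age means; red is positive and blue negative, on a scale of -1 to 1. Mog, Cnp and Cldn11 form a red block. Mog and Cnp stand apart from Mobp, Mal and Mag, while Cldn11 has r = 0.35 with Mal. Mbp is red with all of these, but more weakly with Mog and Cnp (r = 0.26 each).

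The genes most like each member, over the same 43 samples and 13585 genes compared, differed between them. Those closest to Apod were Ctsb (r = 0.68), a lysosomal protease, Gstm7 (0.67) and Hsd17b11 (0.66), and 0 of its 10 closest were in the oligodendrocyte lists, with C1qa sixth (0.64). The lists counted (myelin membrane, lipid synthesis, other mature, regulators, newly formed, inhibitors) held 19, 14, 30, 16, 15 and 7 tested genes. That is a small part of the 13585 compared, so a count of 0 says little by itself. Mag also had 0 of 10, and Mobp, Mal and Opalin 1 each. Cnp and Cldn11 had 2 each, and Mbp and Mog 3 each. Closest to Mbp were Lap3 (0.81), Bcas1 (0.77) and Csrp1 (0.77), and to Mog Gpr37 (0.87), Gng11 (0.81) and Slc12a2 (0.80). Cnp was closest to Ednrb (0.86), Pfn1 (0.77) and Scd2 (0.76), and Cldn11 to Cd81 (0.83) and Ddah1 (0.79). Mag was closest to Cygb (0.79), Unc5b (0.75) and Tkt (0.74), and Mobp to Flywch1 (0.67), Specc1 (0.65) and Myo18a (0.64). Mal was closest to Ermn (0.73), Nudt4 (0.68) and Mis12 (0.65). Opalin had the loosest company, with Gbp11 (0.54), Nxph4 (0.53) and Tnc (0.51). These correlations describe the samples and carry no test.

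In spleen the 9 genes split into those with a level of their own and those near 0. Mbp, which is also transcribed in blood cells, averaged 710 to 1179 across the 6 ages and Cnp 457 to 629. Mal averaged 30.3 to 97.8, Mag 13.1 to 35.5, Apod 10.3 to 22.1, Cldn11 4.43 to 12.5 and Mobp 5.08 to 15.7. The highest means of Apod, Cldn11 and Mobp were those at 14 months, and without replicate 9 of that age they were 15.5, 7.33 and 7.50. Mog and Opalin did not pass the filter there. In the mTOR set Mbp averaged 939 ± 59.4 in mTOR and 1001 ± 66.3 in wild-type spleens at 5 months, and 832 ± 111 in mTOR and 986 ± 93.2 in wild-type spleens of the older mice (SD, n = 3 each). Apod averaged 7.53 ± 2.48 in mTOR and 11.8 ± 6.31 in wild-type spleens at 5 months and 12.1 ± 1.47 in mTOR and 17.7 ± 9.85 in wild-type spleens of the older mice. These mTOR values are levels without a test.

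None of the 7 tested genes was called in spleen at 26 against 3 months with limma (0.369% of all 16243 tested genes were called in either direction). Apod averaged 11.7 ± 2.46 at 26 months and 10.3 ± 7.38 at 3 months (log2 0.38, SE 0.44, limma adjusted p = 0.712). Mag averaged 31.3 ± 9.56 at 26 months and 14.0 ± 6.18 at 3 months (log2 1.14, SE 0.43, limma adjusted p = 0.160), the only one with an unadjusted p under 0.05, and it was called with DESeq2. Mobp averaged 5.08 ± 0.670 at 26 months and 7.56 ± 3.59 at 3 months (log2 -0.37, SE 0.48, limma adjusted p = 0.747). Spleen library 9 at 14 months stood apart: it had Mobp at 81.7 and Apod at 74.9, against at most 24.8 and 32.1 in the other 44 spleens, and the neuronal gene Snap25 at 799, against 46.4 to 209.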

How the data were processed

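RNA was measured by sequencing of total-RNA libraries (TruSeq kit, ligation-mediated protocol, per the labels). The submitters' processing notes list HISAT2 2.1.0 and the mouse build GRCm38, besides cutadapt for trimming, bcl2fastq 2.20 for base-call conversion, DESeq2 in R 3.5.1, and SAMtools. The counting tool, annotation and strand setting are not given in the sources used here. The authors deposited a signal per gene, which is its number of reads over a size factor common to the library: every value was a whole multiple of 1 library step within 0.01 of a read, so reads were recovered for the count tests. Some genes that brain expresses are listed at 0. The brain libraries held 4072076 to 13655235 reads in genes.

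Libraries were grouped by the labels' age. The 5-month pair 1 and 6 and the 8-month pair 4 and 7 differed by less than sampling noise (variance ratios 0.526 and 0.628, next lowest 1.37) and were averaged, which left 43 brain samples. The labels give each of the 45 libraries its own animal number, these 2 pairs included, so counting every library separately was an alternative. Genes with a value of 10 in at least 5 libraries were tested with limma 3.58.1 on log2(value + 1) in 1 fit over the 6 ages, 2-sided, with Benjamini-Hochberg adjustment over all tested genes. A fold change is thus on the log2(value + 1) scale. Correlations used 100000 permutations within ages. Alternatives used edgeR 4.0.16 and DESeq2 1.42.0 on recovered reads, other pseudocounts, filters and scalings, and left out each library in turn. The limma fit was tested on simulated data.

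The 9 genes and all lists were chosen with earlier results of these data known. All 9 are named. From each list the called genes are named, or else the 2 with the smallest p at 26 against 3 months. For each of the 9, the 3 genes with the most similar pattern are named, leaving out the 9 and predicted genes. A few genes that this rule names are not reported here. Galnt6, Il33 and Aspa were named after their values were seen.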

Additional observations from a re-analysis of the deposited data

Results flagged for a closer look

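Of 107 sets of samples of 1 gene at 1 age in brain or spleen, 19 had a sample whose gap to its nearest neighbour passed the 95% limit for the highest or lowest of a group; chance gives about 1 in 20. In brain, Mbp was at 17319 in 14-month replicate 1 (others 10225 to 13298) and at 11299 in 20-month replicate 7 (others 13215 to 14582). Mobp was at 1636 in 26-month replicate 1 (others 1333 to 1416). Cldn11 was at 1079 in 14-month replicate 5 (others 933 to 993). Mal was at 2675 in 8-month replicate 2 (others 1788 to 2131), and Opalin at 210 in 3-month replicate 7 (others 126 to 162).

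In spleen, 5 of these came from 14-month replicate 9: Mobp at 81.7 (others of that age 3.38 to 14.1), Apod at 74.9 (7.44 to 32.1), Cldn11 at 53.7 (1.05 to 13.9), Mog at 20.1 (1.35 to 10.1) and Mbp at 2291 (386 to 1252). The same library had Aqp4 at 59.3, against at most 21.3 in the other 44 spleens. Spleen 20-month replicate 2 had Mobp at 24.8 (4.54 to 8.497) and Mog at 18.00 (0.800 to 6.95). The others were Mbp at 1654 in 26-month replicate 3 (483 to 763), Mal at 126 in 3-month replicate 5 (18.8 to 48.3), Mog at 11.1 in 5-month replicate 5 (0 to 5.39) and Cldn11 at 16.6 in 5-month replicate 7 (2.16 to 8.79). Opalin was at 0.792 in 3-month replicate 6 and 1.43 in 5-month replicate 1, with the others of those ages at 0. Where all others are at 0 any value passes the limit, so the chance rate of 1 in 20 does not apply to these Opalin sets.

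For Mobp at 26 against 3 months the mean log2 difference was 0.28 in brain (limma adjusted p = 0.306), with every 26-month brain above the 3-month mean, and -0.37 in spleen (limma adjusted p = 0.747), with every 26-month spleen below it. Neither passed its test, and the difference between the tissues was not tested.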

How the results depend on the processing

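The number of the 9 genes called at 26 against 3 months (1, Apod) was 1 in all 12 alternative settings and 0 to 1 when each library was left out, with 26-month replicate 1 the only loss. At 20 against 3 months the main count of 1 was 0 with no filter on low values and 2 with only the 2 ages in the fit (Mobp added), and 0 to 1 with each library left out (0 in 16 of 43). At 26 against 14 months the main count of 2 was 1 with a pseudocount of 0.5, a filter at 50 or TMM scaling, and 0 with no filter, without libraries under 5000000 reads or with only the 2 ages, and 0 to 2 with each library left out; Apod lost its call there without 14-month replicate 9 and 26-month replicates 1, 2 and 4. For any age difference 2 genes were called with quantile normalization or with every library counted separately (Mobp added) and 3 with DESeq2 (Cldn11 too), and 1 to 2 with each library left out. The slope with age called 2 to 4 genes in other settings and 2 to 3 with each library left out; Apod and Mobp were called in all 54. Relative to the other oligodendrocyte genes the count was 0 without libraries under 5000000 reads and 0 to 1 with each library left out. In spleen it was 1 with DESeq2 (Mag). The cause of these changes was not tested. All genes called at 26 against 3 months numbered 103 here and 53 to 169 in other settings. No direction of a called value turned. No paired analysis was possible because the labels carry no replicate numbers shared between ages. With 5 samples at 26 months, 1.5-fold differences were not all detectable.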
